A study of Mus musculus with 4 samples.

Results

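The regions described here are Flag-Nynrin peaks found in both replicates, at an end of a single protein-coding gene in replicate 1 and wide in replicate 2. A region was chosen by a rule: a replicate 1 peak on chromosomes 1 to 19, with its summit within 1000 bp of an end of exactly 1 protein-coding gene, that overlapped a replicate 2 peak of 1500 bp or more (its partner). Of the 12627 replicate 1 peaks on these chromosomes, 11266 overlapped a replicate 2 peak, and 5031 of those lay at an end of exactly 1 gene. The rule selected 1692 of the 5031, or 33.6%, and the other 3339, whose partner was narrower, served as the contrast. Since the replicate 2 width chose the regions, every replicate 2 value below (width, fold and significance) is a description and carries no test.

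Nynrin, a protein with a NYN-type ribonuclease domain, was followed through a Flag tag. The 3xFlag-Nynrin-Tg mice were C57BL/6 animals aged 8 weeks, chromatin came from their lineage-negative marrow cells, and each of 2 Flag precipitations had its own input library from the same kind of mouse. Every library therefore carried the transgene, its promoter and copy number are not given in the sources used here, and no Flag precipitation from mice without the tag was analysed here. The labels do not say that the replicates came from separate animals, and a peak list holds no expression values against which the cell type could be checked.

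Lineage-negative cells are the fraction of bone marrow that is left when mature blood cells have been removed, and they hold the stem and progenitor cells. A promoter is the stretch of DNA around a gene's 5′ end on which RNA polymerase II assembles, and the promoters of widely used genes are mostly rich in CpG dinucleotides. The width of a ChIP-seq peak is the length of DNA over which read density stays above the caller's threshold without a long gap, so it depends on the height of the signal, the depth of the library and the fragment length as well as on where the protein sits. The libraries were size-selected for 100 to 500 bp. The number of reads behind each list is unknown here, and replicate 2 gave 25539 peaks on the same chromosomes, 2862 of them 1500 bp or wider, beside 480 of the 12627 in replicate 1.

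Promoter sequence of 4 member genes is printed to show the kind of DNA under these peaks: the members with the highest replicate 1 fold (Srcap and Eif5a) and with the widest replicate 1 peak (Gtf2a1 and Mus81) among those with a promoter entry whose start site lay within 1000 bp of the replicate 1 summit. Beside them stand the contrast genes with the highest replicate 1 fold (Atp1b3) and the widest replicate 1 peak (Spen), which were chosen after their values were seen. Each run is the 250 bases before the RefSeq start site (GRCm38.p6, the assembly of mm10), 5′ to 3′ on the gene's strand, with every CpG in capitals. The windows are chr7:127511733-127511982 (plus strand) for Srcap, chr11:69921387-69921636 (minus strand) for Eif5a, chr12:91590488-91590737 (minus strand) for Gtf2a1, chr19:5488380-5488629 (minus strand) for Mus81, chr9:96364432-96364681 (minus strand) for Atp1b3 and chr4:141538598-141538847 (minus strand) for Spen.
Srcap: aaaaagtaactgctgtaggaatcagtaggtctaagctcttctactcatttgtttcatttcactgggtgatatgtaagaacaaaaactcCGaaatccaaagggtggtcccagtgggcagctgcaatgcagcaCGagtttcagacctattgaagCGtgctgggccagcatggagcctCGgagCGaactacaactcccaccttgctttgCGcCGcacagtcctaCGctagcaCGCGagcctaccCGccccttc
Eif5a: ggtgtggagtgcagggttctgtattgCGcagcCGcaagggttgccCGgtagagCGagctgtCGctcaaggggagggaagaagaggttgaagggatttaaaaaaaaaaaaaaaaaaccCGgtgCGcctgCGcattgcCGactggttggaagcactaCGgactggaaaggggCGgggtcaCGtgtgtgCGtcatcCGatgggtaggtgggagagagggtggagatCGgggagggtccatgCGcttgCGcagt
Gtf2a1: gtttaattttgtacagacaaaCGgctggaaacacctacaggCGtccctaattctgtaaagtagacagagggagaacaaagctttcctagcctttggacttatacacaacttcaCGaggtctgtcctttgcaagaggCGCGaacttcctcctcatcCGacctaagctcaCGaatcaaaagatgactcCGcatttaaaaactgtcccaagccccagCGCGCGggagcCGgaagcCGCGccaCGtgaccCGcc
Mus81: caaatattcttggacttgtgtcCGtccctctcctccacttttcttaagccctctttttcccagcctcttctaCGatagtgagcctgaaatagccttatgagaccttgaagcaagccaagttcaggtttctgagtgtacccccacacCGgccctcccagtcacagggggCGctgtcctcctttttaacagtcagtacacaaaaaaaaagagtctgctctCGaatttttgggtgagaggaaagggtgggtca
Atp1b3: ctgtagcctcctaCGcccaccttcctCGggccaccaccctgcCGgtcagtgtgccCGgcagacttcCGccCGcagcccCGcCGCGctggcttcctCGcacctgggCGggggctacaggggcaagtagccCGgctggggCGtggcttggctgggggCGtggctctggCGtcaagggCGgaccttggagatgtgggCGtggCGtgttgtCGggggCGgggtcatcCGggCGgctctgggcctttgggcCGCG
Spen: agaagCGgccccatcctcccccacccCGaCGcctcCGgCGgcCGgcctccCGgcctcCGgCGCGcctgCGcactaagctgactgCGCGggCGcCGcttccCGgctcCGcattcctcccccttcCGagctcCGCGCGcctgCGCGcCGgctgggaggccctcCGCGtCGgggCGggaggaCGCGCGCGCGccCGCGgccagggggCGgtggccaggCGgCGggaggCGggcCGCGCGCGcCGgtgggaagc

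The 4 member windows held 11 CpGs in Srcap, 17 in Eif5a, 16 in Gtf2a1 and 5 in Mus81, and the contrast windows held 24 in Atp1b3 and 44 in Spen. These 6 windows thus run against the medians of the full groups given further on, in which the members had more CpGs than the contrast. Srcap, the ATPase that exchanges H2A.Z into nucleosomes, had a replicate 1 peak of 1486 bp with a 13.3-fold enrichment over background and a partner of 1985 bp with 12.8-fold. Eif5a, a translation elongation factor, had 1619 bp and 13.3-fold in replicate 1 and 2972 bp and 22.5-fold in replicate 2, the highest replicate 2 fold among the members.

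The wide regions were also wider in replicate 1, the list that did not set their width class. The median replicate 1 width was 892 bp (95% interval of the median 862 to 928, n = 1692 peaks) for the members and 563 bp (550 to 576, n = 3339) for the contrast, a ratio of 1.58, beside 524 bp over all 12627 replicate 1 peaks. The middle 50% of the members ran from 581.75 to 1253 bp and that of the contrast from 406 to 776 bp, so the groups overlapped widely. A replicate 1 width of 1500 bp or more was found for 241 members (14.2%, exact binomial interval 12.6 to 16.0) and for 30 contrast peaks (0.898%, 0.607 to 1.28). Most of the wide partners were thus not matched by a wide peak in replicate 1, but most of the wide replicate 1 peaks had a wide partner. Of the 271 replicate 1 peaks of 1500 bp or more, 88.9% (84.6 to 92.4) were members, against 58.3% of those from 1000 to 1500 bp, 28.7% of those from 500 to 1000 bp and 19.6% of those under 500 bp. Peaks of 1 list are not replicates of a condition, and a wider peak can meet a partner more easily, so the intervals here and below cover only the sampling of peaks or genes and no test was made.

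**Figure D1:**
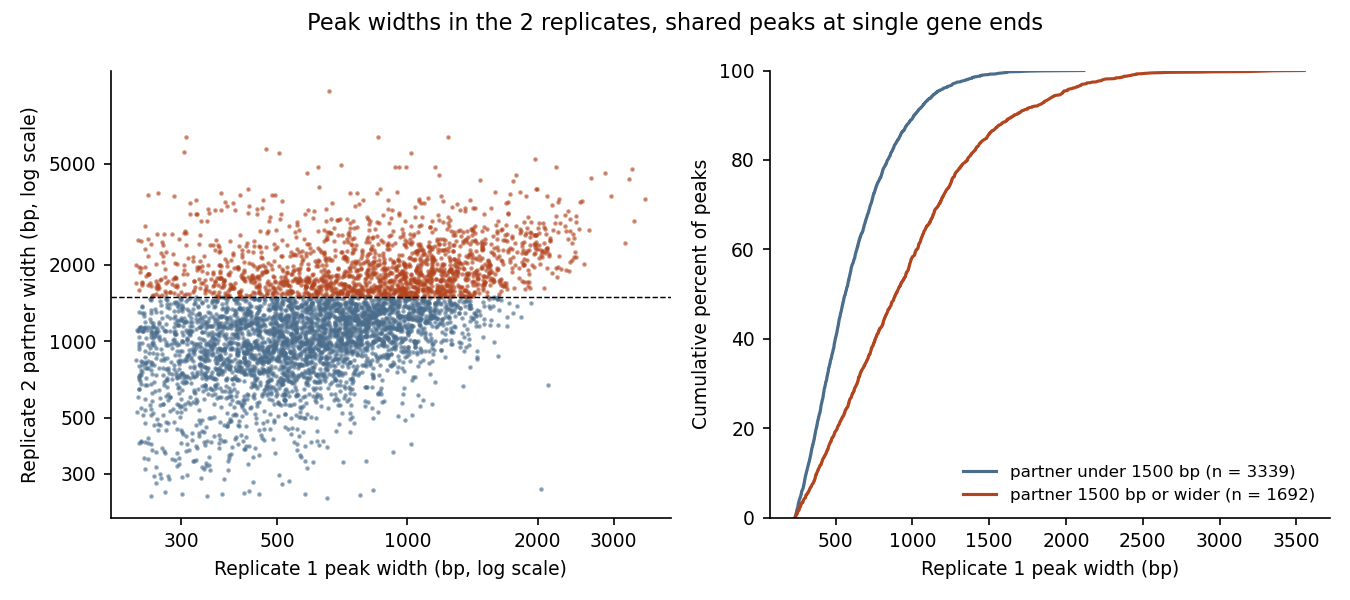
Widths of the 5031 shared peaks at single gene ends. Left, each point is 1 replicate 1 peak, with its width and that of its replicate 2 partner in bp on log axes, and the dashed line marks the 1500 bp that divides members (red) from contrast (blue). Right, the cumulative percent of peaks by replicate 1 width: the member curve lies to the right of the contrast curve, with medians of 892 and 563 bp.

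Across the 5031 peaks, the widths of the replicates had a Spearman rho of 0.45. Within the members, where the partner width was cut at 1500 bp, rho was 0.21, and within the contrast it was 0.36. These are descriptions over peaks that share 2 libraries.

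Peak height moved with width. The median replicate 1 fold enrichment was 4.56 (4.48 to 4.65) for the members and 4.02 (3.98 to 4.07) for the contrast, a ratio of 1.13, and the median −log10 q was 7.99 and 5.62. In replicate 2, where the class was set, the medians were 1889 and 1026 bp, 9.03- and 6.99-fold, and 20.9 and 14.0 for −log10 q. The members were thus both higher and wider, and the relative difference was larger in width than in fold. When the 5031 peaks were divided into 4 classes by replicate 1 −log10 q, the share of members was 23.8% in the lowest class and 52.5% in the highest. In the lowest class the replicate 1 medians were close, at 457 bp for members and 418 bp for contrast peaks. In the other classes they were 684 and 518 bp, 957.5 and 639 bp, and 1135.5 and 799 bp. Members were therefore wider than contrast peaks of like significance in each class. The part of signal strength or depth in these widths was not tested.

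At the threshold itself the groups met without a gap. Ube2m, which encodes the NEDD8-conjugating enzyme UBC12, had a partner of exactly 1500 bp (10.4-fold) and a replicate 1 peak of 1394 bp (4.32-fold). Lrrfip2, also at 1500 bp (5.67-fold), had a replicate 1 peak of 712 bp (5.61-fold). Just outside, at 1499 bp, stood Pygl, liver glycogen phosphorylase, with a 7.34-fold partner and a replicate 1 peak of 651 bp (3.45-fold), and Rdh11, a retinol dehydrogenase, with 4.05-fold and 950 bp (3.95-fold). The replicate 1 widths of these 4 peaks overlapped between the sides of the threshold.

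The wide regions were promoter regions. Strand was known from the RefSeq promoter table for the genes of 1398 members, and 1363 of these (97.5%, 96.5 to 98.3) had a replicate 1 summit nearer the 5′ than the 3′ end, against 2614 of 2708 contrast peaks (96.5%). The median distance of the replicate 1 summit from the 5′ end was 161 bp (147 to 174) for members and 114 bp (109 to 121) for contrast peaks. Summits inside the gene made up 50.9% of the members and 55.6% of the contrast. The summits of the 2 replicates lay a median of 138 bp apart in members and 103 bp apart in the contrast, and they lay within 200 bp of each other in 63.5% and 77.0%. Wide regions thus had less closely placed summits, although most were still near the start of the gene. A wider partner also leaves room for summits to lie further apart, and these distances were not adjusted for width.

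The wide regions extended to both sides of the gene start, and further downstream. Around the 5′ end, the partners of members reached a median of 745 bp upstream and 1184 bp downstream, and those of the contrast 409 and 596.5 bp. The partner spanned the 5′ end in 98.1% of members and 91.8% of contrast peaks. It reached further into the gene than upstream in 72.6% (70.1 to 74.9) of members and 69.0% (67.2 to 70.7) of contrast peaks, so the lean towards the gene body was seen in both groups. In replicate 1 the reach was 396 bp upstream and 497 bp downstream for members, and 258 and 335 bp for the contrast. There, 57.2% of members and 58.6% of contrast peaks reached further downstream, and the intervals of the 2 groups overlapped.

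**Figure D2:**
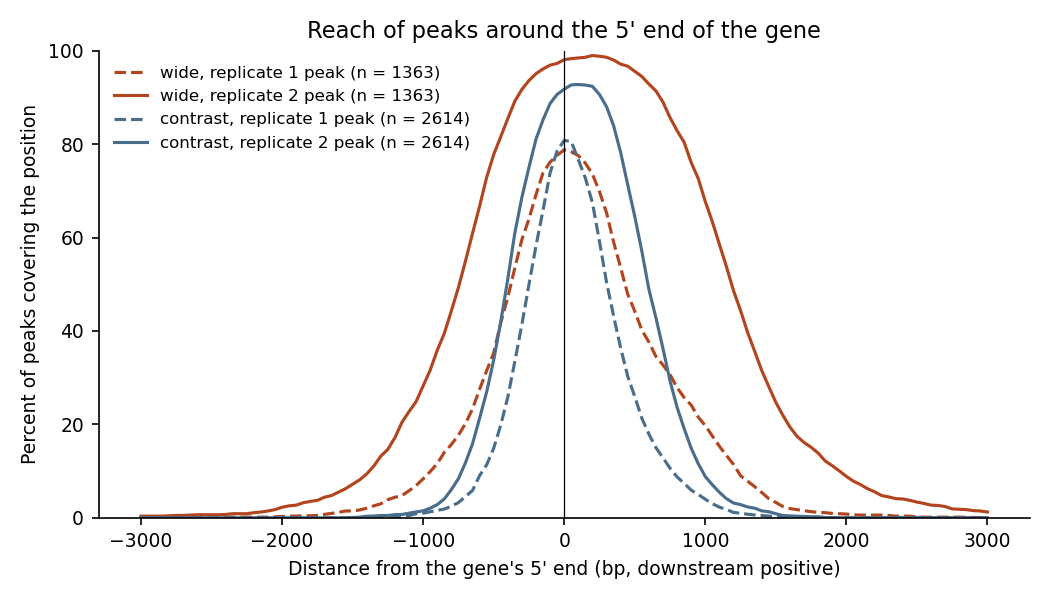
Percent of peaks that cover each position from 3000 bp upstream to 3000 bp downstream of the gene's 5′ end, for 1363 members (red) and 2614 contrast peaks (blue) nearer the 5′ end, with replicate 1 dashed and replicate 2 solid. The replicate 2 member curve is the broadest, and its right shoulder lies further from the gene start than its left one, as the medians of 1184 bp downstream and 745 bp upstream give.

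Some wide partners held several separate replicate 1 peaks, although most held 1 member. The 1692 members lay in 1571 partners: 1453 partners held 1 member, 115 held 2 and 3 held 3. Counting every replicate 1 peak, 25.8% of members had a partner that overlapped more than 1, against 2.64% of the contrast. A wider partner has room for more peaks, and these shares were not adjusted for width. Replicate 1 peaks covered a median of 52.6% of the partner in members and 57.1% in the contrast. Members that share a partner are not separate observations of width, and with only the highest-fold replicate 1 peak kept per partner the share of wide partners was 32.2%. For 9 members the replicate 1 peak overlapped 2 partners, of which the wider was used.

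Wide partners also took in more annotation than the 1 gene that defined them. The end of another protein-coding gene lay inside the partner for 71 members (4.20%); in the contrast there was none, which the rule nearly fixes, since it allows no other gene end within 1000 bp of the summit and the partners are under 1500 bp. The end of a long noncoding RNA gene lay in the partner of 16.1% of members and 10.3% of contrast peaks. For tRNA genes, the adaptors of translation, this held for 22 members (1.30%) and 8 contrast peaks (0.240%), and for microRNA genes for 21 (1.24%) and 15 (0.449%). A wider window holds more ends of any kind, and these shares were not adjusted for width. The genes of members had a median length of 26293 bp against 22992 bp, and the nearest end of another protein-coding gene lay 16035 bp away against 13122 bp.

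The widest partners included those of a noncoding RNA and of short immediate early genes. The widest was a partner of 9707 bp (14.3-fold) at the 3′ end of Frmd8, a partner protein of the iRhom membrane proteins, where replicate 1 had a peak of 660 bp (3.56-fold). That partner held an end of Neat1, the noncoding RNA on which paraspeckles are built, and protein-coding genes alone were used to choose the regions. Ier2, an immediate early gene of 1522 bp, lay whole within a partner of 6386 bp (8.53-fold) that held 3 members, of 307, 1242 and 856 bp (3.24-, 4.64- and 5.28-fold) in replicate 1. Junb, which encodes an AP-1 subunit, was likewise covered whole by 5501 bp (10.6-fold), with replicate 1 peaks of 1019 bp (3.27-fold) beyond its 3′ end and 504 bp (2.92-fold) at its start.

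A partner much wider than the replicate 1 peak at the gene end was also seen at Myo1c, Trim8 and Zfp36. Myo1c, an unconventional myosin, had 5725 bp (9.03-fold) in replicate 2 and 472 bp (3.36-fold) in replicate 1. Trim8, a RING-finger ubiquitin ligase, had 5578 bp (12.2-fold) and 304 bp (2.93-fold). For Zfp36, whose product speeds the decay of AU-rich mRNAs, the partner was 4964 bp (9.57-fold) and the replicate 1 peak at the gene start was 701 bp (6.45-fold). The summits of these 2 Zfp36 peaks lay 3980 bp apart. Counting every replicate 1 peak, the partner overlapped 2 at Myo1c, 3 at Trim8 and 4 at Zfp36. Together they covered 18.9%, 34.6% and 64.0% of the partner. Cebpb, a transcription factor of granulocytes and macrophages, differed in having a single, broad replicate 1 peak of 1974 bp (4.45-fold) under its partner of 5246 bp (8.77-fold). That peak covered 37.6% of the partner.

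**Figure D3:**
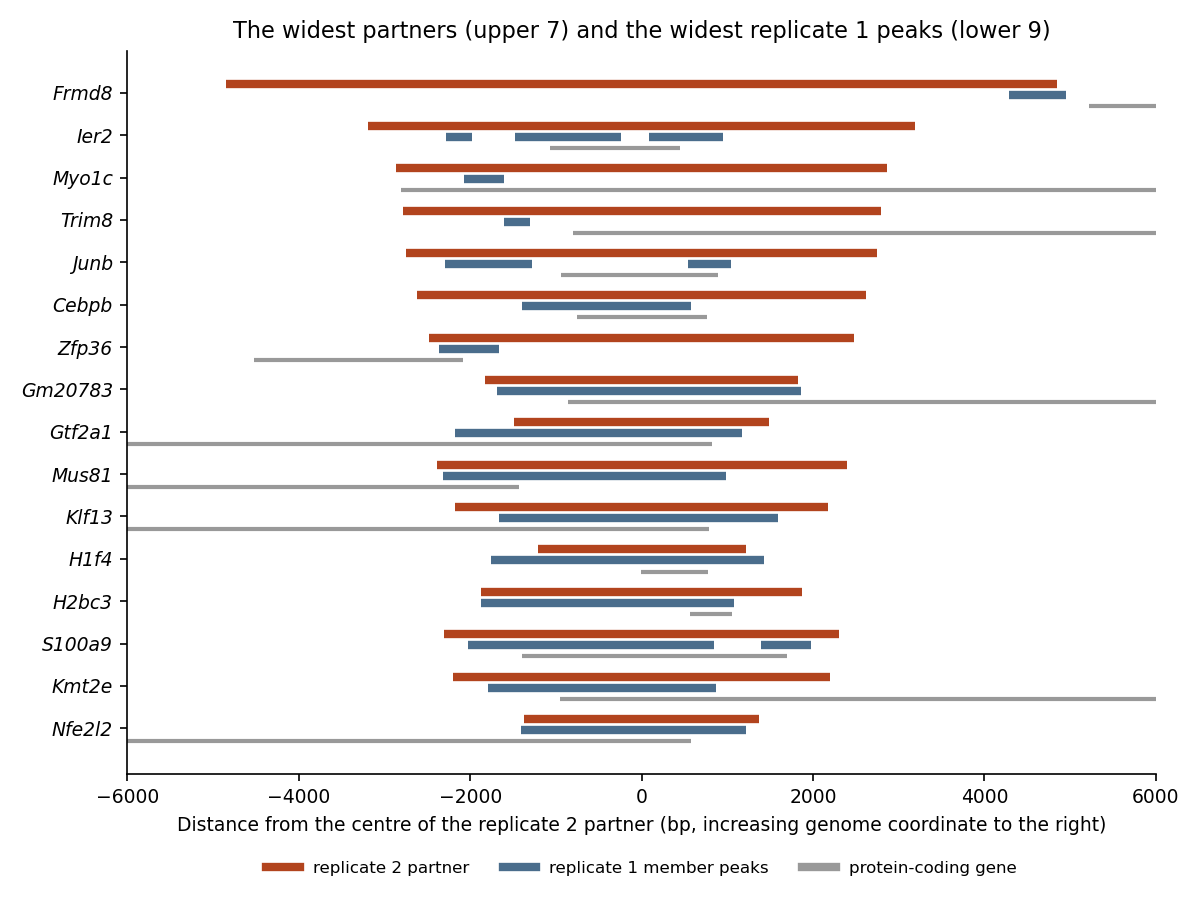
Extents of the members with the widest replicate 2 partner (upper 7 rows, each partner drawn a single time) and the widest replicate 1 peak (lower 9 rows), in bp from the centre of the partner, with genome coordinates rising to the right. Red bars are partners, blue bars the member peaks of replicate 1 and grey bars the protein-coding gene, drawn as far as 6000 bp; at Ier2 and Junb several short replicate 1 peaks lie under 1 partner, whereas at Gtf2a1 and H1f4 the replicate 1 peak runs beyond the partner.

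The widest replicate 1 peaks were matched more evenly by their partners. Gm20783, a gene model whose 3′ end lay under the peak, had 3551 bp (5.38-fold) in replicate 1 and 3645 bp (15.7-fold) in replicate 2, and the partner also held an end of another predicted protein-coding gene. Gtf2a1, which encodes the large subunits of the general factor TFIIA, had 3347 bp (4.18-fold) and 2978 bp (12.2-fold). At Mus81, a DNA junction endonuclease, the widths were 3302 bp (4.20-fold) and 4787 bp (13.3-fold), and the partner also held an end of Cfl1, the gene of the actin-severing protein cofilin. The partner at Mus81 thus took in an end of a neighbouring gene. From the Mus81 5′ end it reached 3827 bp upstream and 960 bp downstream.

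Transcription factor and chromatin genes made up several of the rest. Klf13, a Krüppel-like factor, had a replicate 1 peak of 3252 bp (7.29-fold) and a partner of 4352 bp (10.7-fold). Kmt2e, a PHD and SET domain protein, had 2661 bp (5.24-fold) and 4395 bp (12.8-fold). Nfe2l2, which encodes NRF2, the activator of antioxidant genes, had 2625 bp (4.79-fold) and 2741 bp (9.30-fold). At Klf13 and Nfe2l2, where the strand was known, both peaks spanned the gene start.

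Others were histone and granulocyte genes. The linker histone gene H1f4 had 3181 bp (5.08-fold) and 2429 bp (9.17-fold), with an end of H2bc6 inside the partner, and the core histone gene H2bc3 had 2956 bp (8.53-fold) and 3741 bp (6.80-fold), with an end of H3c3. S100a9, a subunit of the neutrophil protein calprotectin, was covered whole by a partner of 4609 bp (6.08-fold), over a replicate 1 peak of 2867 bp (3.54-fold). The summit of that replicate 1 peak lay beyond the 3′ end. Another S100a9 member in the same partner, of 586 bp (6.25-fold) in replicate 1, lay at the gene start. At H2bc3, Srcap and the short S100a9 peak the replicate 1 fold was above the replicate 2 fold, against the order of the medians.

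Other regions of high fold were narrower. Beside Srcap and Eif5a, high replicate 1 folds were found at Plekhf2, an endosomal protein (881 bp, 11.7-fold), Pkn2, a protein kinase (1015 bp, 11.4-fold), and Dazap2, a small proline-rich adaptor (1142 bp, 10.8-fold). Their partners measured 1927, 2643 and 2313 bp, with 12.8-, 11.4- and 12.0-fold. None of these 3 replicate 1 peaks reached 1500 bp.

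Histone genes were common among the short genes covered whole by the partner. Whole cover was found for 41 members at 30 genes, and for 4 contrast peaks. In a count made after the values were seen, 14 of the 30 genes were replication-dependent histone genes, which are short, intronless and transcribed in S phase. A partner of 1500 bp or more covers a short gene more easily than a narrower one. Whole cover was not adjusted for gene length or partner width. In all, 18 members stood at 15 such genes, with replicate 1 widths of 379 to 3181 bp and a median of 1216 bp, and 6 contrast peaks stood at 6 others. Over all genes, 1572 had a member and 3247 had contrast peaks only. Several of these genes lie side by side, so that a peak at one may reach the next.

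The 1692 members belonged to 1572 genes, 7.61% of the 20665 protein-coding genes on chromosomes 1 to 19. Of the 4819 genes with a member or a contrast peak these were 32.6%, and 18 genes had both. The genes were grouped by 16 lists of known function, each gene counted by its membership and, as a measure the rule did not use, by whether its widest replicate 1 peak was 1000 bp or more, as in 22.1% of the 4819 genes. Only genes with a shared peak at a single gene end could be counted. The lists held 220 of the 1572 genes, so 1352 fell in none of them.

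Genes of messenger RNA processing had, of the 16 lists, the highest share by replicate 1 width and a share next to that of the immediate early genes in replicate 2. Of 43 countable genes for splicing and RNA-binding factors, 35 had a wide region (81.4%, 66.6 to 91.6), and 27 (62.8%) had a replicate 1 peak of 1000 bp or more. The widest replicate 1 peaks were at Luc7l2, a U1 snRNP-associated factor (2494 bp, partner 2758 bp), Pcbp1, a poly(C)-binding protein (2374 bp, 3022 bp), and Srsf3, an SR protein (2319 bp, 2852 bp). Over all 43 genes the median replicate 1 width was 1190 bp, against 653 bp over the 4819. Both replicates therefore placed this list above its background, as they did most of the 16 lists. A share above background is thus not particular to these genes.

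Immediate early and stress-induced genes had 22 of 27 (81.5%, 61.9 to 93.7) in replicate 2 and 13 of 27 (48.1%) by the replicate 1 measure. Pim1, a serine/threonine kinase, had 2209 bp in replicate 1 and 4854 bp in replicate 2, Dusp1, a MAP kinase phosphatase, 2086 and 2777 bp, and Egr1, a zinc-finger factor, 1918 and 2573 bp. The median replicate 1 fold was 4.08 over all 27 genes and 4.45 over the 22 wide ones, beside 4.24 over the 4819 genes.

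Chromatin regulators had 27 of 36 (75%, 57.8 to 87.9), and 19 of 36 (52.8%) by replicate 1 width. Kmt2e was followed by Kmt2c, a histone H3 lysine 4 methyltransferase (2353 bp, partner 2532 bp), and Eed, a Polycomb subunit (2042 bp, 2193 bp). The transcription machinery had 15 of 28 (53.6%), with Hexim1, an inhibitor of P-TEFb (2245 bp, 2172 bp), Med13l of Mediator (1562 bp, 2254 bp) and Polr2a, the largest subunit of RNA polymerase II (1550 bp, 1929 bp). By replicate 1 width it had 13 of 28 (46.4%).

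Genes of blood cell identity were in part wide. Myeloid and lymphoid transcription factors had 13 of 19 (68.4%, 43.4 to 87.4), among them Klf13, Cebpb and Rel, an NF-κB subunit (1382 bp, partner 2149 bp), and 10 of 19 (52.6%) by replicate 1 width. Of the blood stem and progenitor factors, 5 of 9 were wide (55.6%, 21.2 to 86.3), including Nfe2l2, the E protein gene Tcf3 (1191 bp, 1908 bp) and Runx1 (1141 bp, 1644 bp). The intervals of this small list, and of the cytokine and growth factor receptors with 9 of 18 (50%, 26.0 to 74.0), reached below 32.6%. By replicate 1 width these 2 lists had 3 of 9 (33.3%, 7.49 to 70.1) and 6 of 18 (33.3%, 13.3 to 59.0). Both of these intervals held the background of 22.1%. Among the receptors, Cxcr4, the receptor that holds stem cells in the marrow niche, had 2202 bp (partner 3115 bp), Tek, the angiopoietin receptor, 2058 bp (2267 bp), and Igf1r 1687 bp (2875 bp). Of the 32 stem and progenitor genes on these chromosomes, 21 had no shared peak at a gene end. This also held for 18 of 38 myeloid and lymphoid factors and 13 of 31 receptors. Only 4819 of all 20665 protein-coding genes had a shared peak at a single gene end, so such absence is not particular to these lists.

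Signalling and protein upkeep lay between. PI3K, mTOR and FoxO signalling had 13 of 21 (61.9%, 38.4 to 81.9), with Gsk3b (1777 bp, partner 2432 bp), Stk11, the LKB1 kinase (1530 bp, 2773 bp), and Rheb, the GTPase that activates mTORC1 (1417 bp, 2800 bp). Chaperones had 12 of 21 (57.1%), with Hsp90ab1 (1604 bp, 2871 bp), Xbp1, a factor of the unfolded protein response (1344 bp, 2446 bp), and Hspa8 (1298 bp, 2070 bp). Ubiquitin and proteasome genes had 16 of 31 (51.6%), with Ubb, a polyubiquitin gene (2419 bp, 2645 bp), Psma3 (2075 bp, 2435 bp) and Ube2n (1869 bp, 1613 bp). By replicate 1 width these 3 lists had 42.9%, 47.6% and 32.3%. With the replicates exchanged, chaperones fell on the other side, with 4.76% beside 5.85% of all counted genes.

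Cell cycle and p53 genes had 14 of 28 (50%, 30.6 to 69.4) in replicate 2 but 6 of 28 (21.4%) by replicate 1 width, next to the background of 22.1%. Wee1, the kinase that restrains CDK1, had 1933 bp (partner 2940 bp), Rb1 1927 bp (2666 bp) and Mki67 1340 bp (1521 bp). Nuclear transport genes showed the reverse, with 9 of 26 wide (34.6%, 17.2 to 55.7) but 13 of 26 (50%) by replicate 1 width. The importins Kpna4 (2399 bp, 2098 bp) and Kpnb1 (1965 bp, 2409 bp) and the pore protein Ranbp2 (1552 bp, 2000 bp) led that list. For these 2 lists the measures thus differed, but they are unlike in width limit as well as in replicate. With each replicate alone and a limit of 1500 bp, both lists lay above all counted genes. In replicate 2 alone, cell cycle genes had 44.4% and nuclear transport genes 34.6%, beside 22.5%. In replicate 1 alone they had 7.14% and 19.2%, beside 5.52%.

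Genes of protein synthesis were divided. Translation factors had 13 of 25 wide (52.0%, 31.3 to 72.2), with Pabpc1, the poly(A)-binding protein (2136 bp, partner 2501 bp), Eif4g2 (2045 bp, 2254 bp) and Eif1 (1857 bp, 2452 bp). That interval held 32.6%, and by replicate 1 width the list had 11 of 25 (44%). Cytosolic ribosomal protein genes had 13 of 56 (23.2%, 13.0 to 36.4), and 10 of 56 (17.9%) by replicate 1 width. The widest were Rpl7 (1304 bp, 1895 bp), Rps29 (1214 bp, 1923 bp) and Rpl41 (1077 bp, 3504 bp). Over the 56 genes the replicate 1 medians were 688 bp and 4.53-fold, against 653 bp and 4.24-fold over the 4819 genes. In replicate 1 these peaks were thus neither low nor narrow beside the rest, and the interval of their share reached above 32.6%. With a partner width of 1000 bp as the limit, 83.9% of the 56 genes were wide, above the 68.4% of all counted genes, so the side on which this list fell turned with the limit.

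Genes of mitochondrial respiration had no wide region. Of the respiratory chain and mitochondrial ribosome list, 18 genes had a shared peak at a single gene end, none of them wide (0%, upper limit 18.5%), and 2 (11.1%) had a replicate 1 peak of 1000 bp or more. Another 19 genes of this list had shared peaks only near the ends of several genes and could not be counted. With a partner width of 1000 bp as the limit, 72.2% of the 18 were wide, beside 68.4% of all counted genes, so most of these partners lay between 1000 and 1500 bp. The median replicate 1 width of the 18 genes was 718.5 bp, against 653 bp over the 4819.

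The permeability transition pore, the mitochondrial channel named in the study's title, had 5 of 16 genes wide (31.3%, 11.0 to 58.7), beside 32.6% of all counted genes. By replicate 1 width it had 6 of 16 (37.5%, 15.2 to 64.6), beside 22.1%, and with a limit of 1000 bp it had 81.3%, beside 68.4%. The sides on which this list fell thus differed between measures, and with 16 genes the intervals of the first 2 shares held their backgrounds. They included Gsk3b, Vdac2 (1639 bp, partner 1697 bp) and Vdac3 (1126 bp, 1824 bp), the latter 2 being channels of the outer mitochondrial membrane. Nynrin itself was not among the regions: replicate 1 had no peak at its ends or within it, and replicate 2 had 1, of 422 bp and 3.44-fold.

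**Figure D4:**
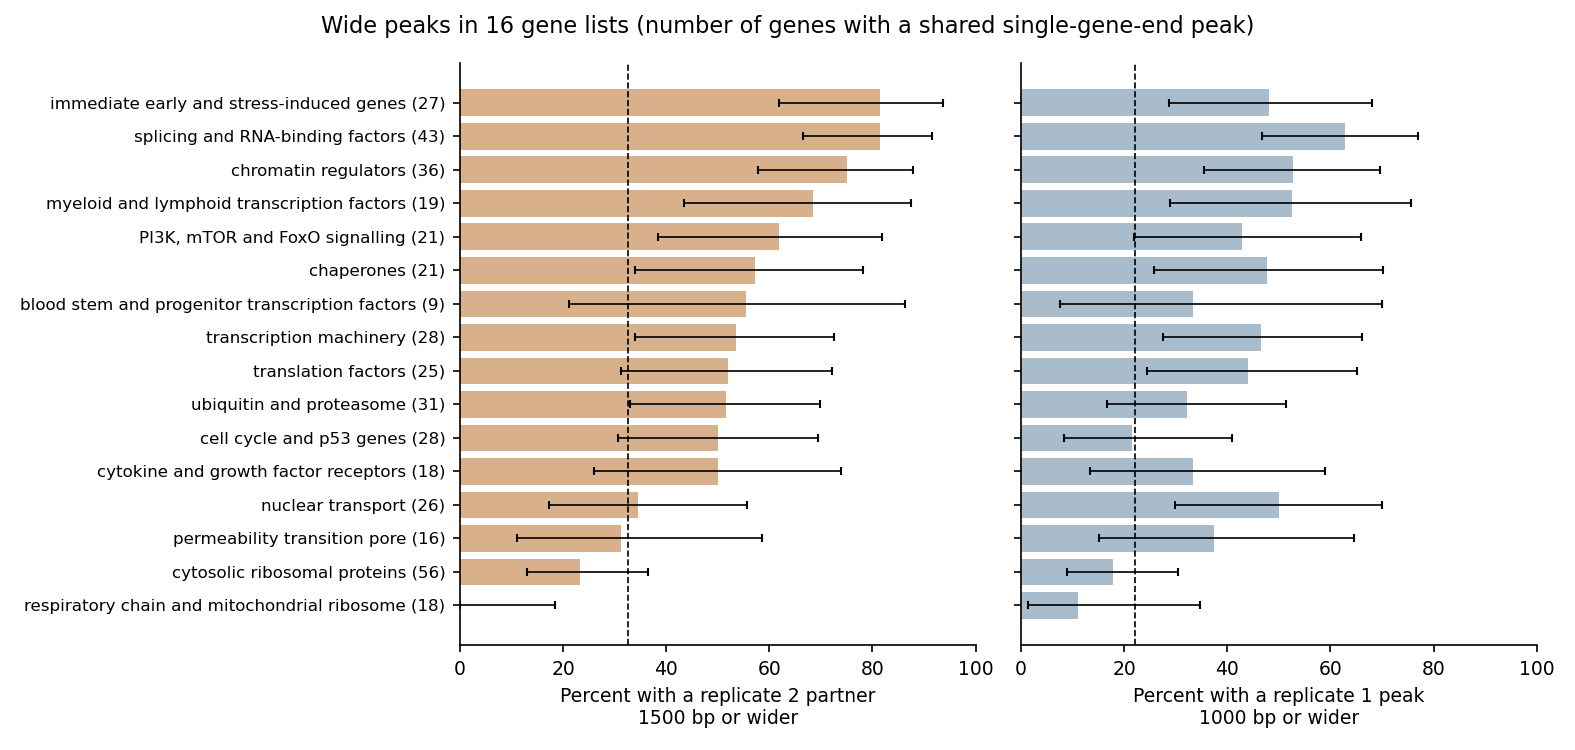
Percent of genes in each of 16 lists with a replicate 2 partner of 1500 bp or more (left, the measure that chose the regions) and with a replicate 1 peak of 1000 bp or more (right), with exact 95% binomial intervals over genes; the number of countable genes is in brackets, and the dashed lines mark 32.6% and 22.1% over all 4819 genes. Splicing, immediate early and chromatin genes lie to the right of the line in both panels, as most lists do. Ribosomal and respiratory genes lie to the left in both. With a limit of 1000 bp on the partner these 2 lists lie above the share of all counted genes.

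Promoter composition, which the rule did not use, differed between the groups. A RefSeq promoter of 300 bp (250 bases before to 50 after the start) was matched for 1301 of the 1572 member genes (82.8%) and 2634 of the 3247 genes with contrast peaks only (81.1%); chromosome 18 was not analysed here for sequence. The median number of CpGs was 26 (25 to 27) in member promoters and 22 (22 to 23) in contrast promoters, against 14 over all 16457 protein-coding genes with an entry. GC content was 64.7%, 61.0% and 56.7%, and the observed over expected CpG ratio was 0.858, 0.812 and 0.595. The share of genes with a wide region was 23.5% where the promoter held 0 to 14 CpGs, 28.6% for 15 to 24, 36.6% for 25 to 34 and 47.8% (43.8 to 51.8) for 35 or more. Most of the distance from other genes was thus common to both groups, and the members lay somewhat further along it.

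A search for 12 short motifs on both strands found 2 that differed beyond the intervals of their shares. GGGCGG, the GC box that SP and KLF factors bind, was present in 78.2% (75.9 to 80.5) of member promoters, 68.3% (66.4 to 70.0) of contrast promoters and 47.3% of all promoters. CCGGAAG, the core of ETS factor sites, was present in 16.3% (14.3 to 18.4) of members, 23.5% (21.9 to 25.2) of the contrast and 12.3% of all. The ETS core was thus less frequent in members although they were richer in CpG. It was lower in members in each CpG class, at 11.0% against 14.6% for 0 to 14 CpGs, 17.1% against 27.6% for 15 to 24, 18.9% against 27.03% for 25 to 34, and 14.5% against 18.2% for 35 or more. The GC box contains a CpG, and its shares in the 4 classes were 38.4% against 37.3%, 76.5% against 67.8%, 83.9% against 82.3%, and 95.6% against 91.0%. Of the printed windows, those of Srcap, Eif5a, Atp1b3 and Spen held a GC box and that of Gtf2a1 the ETS core.

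The intervals of the other motifs overlapped between members and contrast. The YY1 motif AAGATGGCG was found in 4.23% and 4.10%, with 1.95% over all promoters, and the cAMP response element TGACGTCA in 4.15% and 4.21%, with 2.42% over all. The NRF1 palindrome stood in 2.84% and 3.00% and TGACGCAA, an ATF4-type site, in 1.31% and 1.40%, with 1.36% and 0.681% over all. CCAAT stood in 41.5% and 40.2%, the E-box CACGTG in 12.3% and 11.2%, and TATAAA in 7.07% and 6.34%, beside 13.5% over all for the last. AGATAA, which Gata1 and its relatives bind, stood in 4.07% and 5.66%, beside 9.87% over all promoters. TGTGGT, the RUNX motif, stood in 9.76% and 12.7%, beside 14.9%, and the AP-1 motif TGAGTCA in 2.31% and 2.70%, beside 4.61%. These 3 motifs of blood and stress-response factors were thus less frequent in both groups than over all promoters, as was TATAAA. None of the 4 holds a CpG, and both groups were richer in GC than all promoters. These shares were not adjusted for composition, so they do not show a trait of blood factor sites. A match describes letters in the window, not a bound site.

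**Figure D5:**
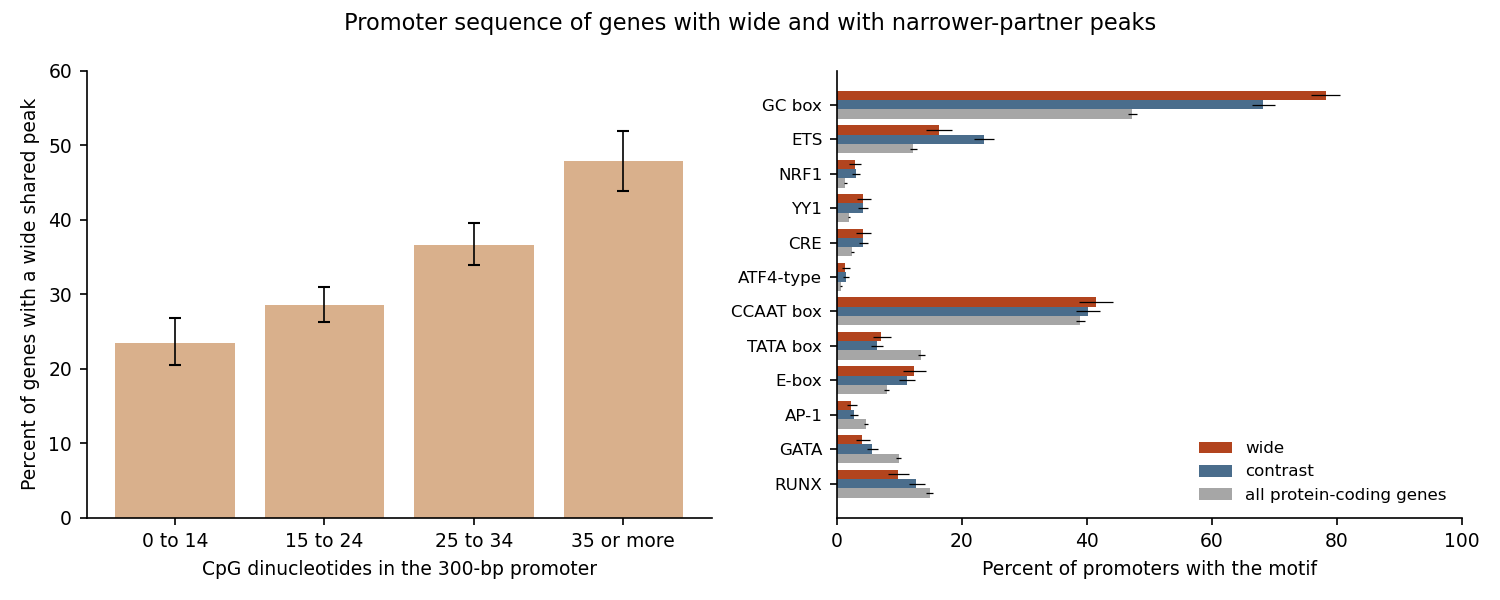
Left, percent of genes with a wide region, of those with a member or contrast peak, by the number of CpGs in the 300-bp promoter; it goes from 23.5% to 47.8%. Right, percent of promoters with each of 12 motifs in member genes (red), contrast genes (blue) and all protein-coding genes with an entry (grey), with exact 95% binomial intervals; the GC box is higher and the ETS core lower in members than in the contrast.

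Wide regions were spread over all 19 chromosomes. Their share of the shared single-gene-end peaks was lowest on chromosome 4, at 27.4% (22.6 to 32.6), and highest on chromosome 11, at 40.5% (35.9 to 45.1). The intervals of the other chromosomes all held 33.6%.

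The number of regions depended on the replicate that set the width. With the replicates exchanged, so that the summit came from replicate 2 and the width from replicate 1, 280 peaks met the rule, or 5.79%, and the ratio of median widths in the list that did not set the class was 1.88. A limit of 1000 bp gave 3460 regions and one of 2000 bp gave 701.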

How the data were processed

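Flag ChIP-seq of lineage-negative bone marrow cells was deposited as 1 peak list for each of 2 Flag replicates; the 2 input libraries were not analysed here. Per the submitters' processing notes, cutadapt, Trimmomatic, FastQC, Bowtie2, MACS2 and ChIPseeker were used with mm10, with no version given. Each deposited row holds the authors' peak positions, a score, the fold enrichment over background (a ratio), the −log10 p and −log10 q values and the summit. Peaks were listed per replicate, with a smallest −log10 q of 1.31 and 1.30, and read depth is unknown. The score was not used.

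Genes, strands and promoters came from RefSeq tables for GRCm38.p6. Overlap meant 1 bp or more, and the widest partner was used. Medians have 95% order-statistic intervals and shares exact Clopper-Pearson intervals, computed with Python 3.11.15, pandas 2.3.3, numpy 2.4.6 and scipy 1.17.1 and drawn with matplotlib 3.10.9; the selection step was tested on simulated data. Peaks on X, Y and the mitochondrial genome (89 and 268) lay outside the rule. The members and the gene lists were chosen with earlier results of these data known. Named were the 10 members with the widest partner, the 10 with the widest replicate 1 peak, the 6 of highest replicate 1 fold, up to 3 genes per list by replicate 1 width, 2 peaks on each side of 1500 bp, and Nynrin; 1 gene that this rule names is not reported here. Other widths, windows, overlaps, significance limits, gene sets, partner choices and each replicate alone were tried as alternatives.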

Additional observations from a re-analysis of the deposited data

Results flagged for a closer look

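Chromosome X lay outside the rule, and 2 peaks there met it in every other respect, of 35 shared peaks at single gene ends on that chromosome. They are reported because they carry a wide partner in data that the comparisons above do not use. Both stood at Hcfc1, the gene of a transcriptional coregulator, in 1 partner of 2040 bp, with replicate 1 widths of 877 and 429 bp.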

How the results depend on the processing

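No paired analysis was possible because every value comes from the 2 Flag lists alone, which form 1 group, so that no groups sharing replicate numbers were compared and no test was made. The number of regions was 1692, and 3460 with partners of 1000 bp, 701 with 2000 bp and 280 with the replicates exchanged. The share of wide partners was 33.6%, and it was 68.8%, 13.9% and 5.79% under those settings, 32.1% with a window of 500 bp, 40.2% with a −log10 q of 5, 32.0% with genes of every kind and 32.2% with 1 peak per partner. The ratio of median widths was 1.58, and 1.88 with the replicates exchanged. The share of summits nearer the 5′ end was 95.9% with genes of every kind and 96.5% with the replicates exchanged, and the median CpG count was 29 with the replicates exchanged. With each replicate alone the number ran from 271 to 1627, the share of wide peaks from 5.28% to 21.1%, the 5′ share from 97.2% to 98.4% and the CpG median from 26 to 29. The cause of these shifts was not tested. Of the values computed under alternatives, 39 of the main comparisons stayed within their interval or spread and 19 moved; for single motifs, lists and other values, 299 stayed and 81 moved. No ratio of medians changed direction. For these ratios the spread was that between the main and the exchanged value, so the exchanged setting counted as moved by construction. The number of regions was judged by a fixed factor instead. Of 192 list shares under alternatives, 11, in 4 lists, lay on the other side of the share of all counted genes: 7 of the pore list, 2 of chaperones and 1 each of the ribosomal and respiratory lists. Unknown depth limits every width and fold, and 2 replicates limit how far they can be generalised.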
